A study of Mus musculus with 8 samples.

Results

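Transcripts of 10 nicotinic acetylcholine receptor subunit genes, Chrna2, Chrna3, Chrna4, Chrna5, Chrna7, Chrna9, Chrna10, Chrnb1, Chrnb2 and Chrnb4, were examined in sorted intestinal tuft cells after muscarinic receptor blockade. They were taken by symbol from the 35199 genes of the count table. Nicotinic receptors are cation channels built from several subunits around a central pore, and they open when acetylcholine binds between an alpha subunit and its neighbour. Some alpha subunits form channels alone, whereas most need particular alpha or beta partners, so the set of subunits expressed bears on which channels a cell can build. Tuft cells are rare chemosensory epithelial cells that contain the acetylcholine-synthesizing enzyme Chat.

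Live, EPC-high cells positive for ZSgreen were sorted from Dclk1-DTR-ZSgreen mice, in which a BAC transgene places the ZSgreen reporter and a diphtheria toxin receptor under Dclk1 regulatory sequence. Mice of both groups carried this transgene, were 8 to 10 weeks old at pump implantation, and received either scopolamine, a nonselective muscarinic antagonist, at 0.5 mg per kg per day (n = 4) or sodium chloride as sham (n = 4) for 7 days. Each library was made from 1 mouse, and replicate numbers only name the mice. RNA came from 3000 sorted cells for replicate 1 of each group and from 4000 for the others, and was amplified from 1000 pg with 10 cycles in 6 libraries but from 200 pg with 15 cycles in sham replicates 1 and 3. Mouse IDs begin with M in scopolamine replicates 1 to 3 and sham replicate 1, and with N in the others, a letter whose meaning is not given in the sources used here.

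The total estimated count was 20327680, 20244608, 14343362 and 20857433 in scopolamine replicates 1 to 4 and 25769940, 40426059, 41428916 and 35391538 in sham replicates 1 to 4. Every sham library was therefore deeper than every scopolamine library, so that depth cannot be told apart from treatment. Levels are given in CPM, the counts scaled to a common library size with TMM factors. A gene was called detected in a library with more than 3 counts there, a floor that equals 0.14 to 0.212 CPM in the scopolamine libraries and 0.0729 to 0.114 CPM in the sham libraries. These floors take in counting error alone, because reads of amplified cDNA without molecular identifiers are not independent molecules.

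The sorted cells had the markers of their label. All 12 tuft markers examined were detected in all 8 libraries, with Dclk1 the most abundant. The sort used a reporter under Dclk1 regulatory sequence, so Dclk1 is not independent of the sort. The summed level of the 12 was 12485 to 21480 CPM with scopolamine and 15543 to 18289 CPM in sham. Of the 12, 10 were lower and 2 higher with scopolamine (median log2 fold change -0.14), 0 of them with an unadjusted p under 0.05 in edgeR.

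Detection of the nicotinic subunits ranged from every library to none. Of the 10 genes, 1 (Chrnb1) was detected in all 8 libraries, 5 (Chrna10, Chrnb4, Chrnb2, Chrna2 and Chrna5) in some libraries, 1 (Chrna3) had at most 1 count in any library, and 3 (Chrna4, Chrna7 and Chrna9) had no count. Across the table, 31.1% of genes were detected in all 8 libraries and 38.1% had no count. The number of subunits detected in a library ran from 2 in sham replicate 3 to 6 in sham replicate 2, which are the 2 deepest libraries. The 10 genes together summed to 8.77, 8.75, 13.3 and 13.8 CPM in scopolamine replicates 1 to 4 and to 11.5, 9.99, 5.67 and 8 CPM in sham replicates 1 to 4. These sums overlapped between the groups. Chrnb1 made up 94.7% and 85.2% of the sum in the low-input sham replicates 1 and 3, but 14% in scopolamine replicate 4, where Chrna10 made up 45.4% and Chrnb4 35.5%. In bulk samples, fewer cells of a type and less RNA per cell cannot be told apart, so a low level can stand for a few cells with many transcripts or for many cells with few.

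Chrnb1 encodes the beta subunit of the muscle-type receptor (chromosome 11 from 69784036 to 69795943 of GRCm38). Its level was 5.71, 4.73, 6.14 and 1.94 CPM in scopolamine replicates 1 to 4 and 10.9, 5.71, 4.83 and 4.3 CPM in sham replicates 1 to 4. Scopolamine replicate 4 was the lowest and sham replicate 1 the highest, while the other 6 libraries lay close together and the groups overlapped. The scopolamine group averaged 4.63 ± 1.89 CPM and the sham group 6.43 ± 3.02 CPM (SD, n = 4 each). The log2 fold change, scopolamine over sham, was -0.47 ± 0.61 (SE), for which edgeR's quasi-likelihood test gave an adjusted p = 0.923 (Benjamini-Hochberg over all genes tested). By exact permutation of the log2 levels (two-sided) p was 0.457, where 0.0286 is the smallest value that 4 against 4 allow. The difference did not exceed the spread between mice. Within mice of the M series the mean was 5.52 CPM in 3 scopolamine libraries against 10.9 in 1 sham library, and within the N series 1.94 CPM in 1 scopolamine library against 4.95 in 3 sham libraries. The log2 fold change was -1.16 with that series as a covariate, but -0.13 without the 2 sham libraries made from 200 pg and -0.10 without sham replicate 1 alone.

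The partners of Chrnb1 in the muscle-type receptor had lower levels than Chrnb1 in every library. Chrna1, the muscle alpha subunit, ran from 0 to 0.751 CPM and was detected in 6 libraries. Chrnd reached at most 4 counts, and Chrne and Chrng each had 11 counts at most and were detected in 1 library apiece. Chrna1, Chrnb1, Chrnd and either Chrne or Chrng were detected together in 1 library, sham replicate 2. Muscle markers were at or near 0 in the same libraries, since 4 of the 7 (Myh11, Cnn1, Myod1 and Myog) had no count and the list summed to 0.269 CPM at most, with Actg2 the most abundant.

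Chrna10 encodes an alpha subunit that works with Chrna9 in cochlear hair cells (chromosome 7 from 102111266 to 102116828). Its level was 2.6, 2.2, 5.01 and 6.29 CPM in scopolamine replicates 1 to 4 and 0, 2.43, 0 and 1.94 CPM in sham replicates 1 to 4, from 52, 47, 71 and 133 counts and from 0, 100, 0 and 65 counts. All 4 scopolamine libraries had the transcript, with replicates 3 and 4 the highest, whereas both sham libraries without a count were those made from 200 pg. The groups overlapped, because scopolamine replicate 2 lay below sham replicate 2. The scopolamine group averaged 4.02 ± 1.95 CPM and the sham group 1.09 ± 1.28 CPM (SD, n = 4 each). The log2 fold change was 1.87 ± 1.47 (SE), with an edgeR adjusted p = 0.873 (Benjamini-Hochberg). Exact permutation (two-sided) gave p = 0.0571, which did not reach 0.05. The spread in sham takes in both libraries made from 200 pg, so it is not a spread between mice alone.

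The 2 low-input libraries moved with this difference in Chrna10. Without them the log2 fold change was 0.86 ± 0.81 (SE, edgeR adjusted p = 0.83 by Benjamini-Hochberg), and with amplification cycles as a covariate it was 0.88. Among the 4 sham libraries the mean of Chrna10 was 2.19 CPM at 1000 pg (n = 2) and 0 CPM at 200 pg (n = 2), where 3 counts would be 0.114 and 0.0743 CPM. Of the 12849 genes tested, 116 (0.903%) had no count in both 200 pg libraries and 44 (0.342%) had none in both 1000 pg sham libraries. In the other 6 libraries Chrna10 stayed between 1.94 and 6.29 CPM, as did 89 genes including itself, and of these 2 were at 0 in both low-input libraries, Chrna10 and the nucleoside transporter gene Slc29a2, a comparison chosen after the values were seen. With mouse ID series as a covariate the log2 fold change was 4.43 ± 2.43 (SE, edgeR adjusted p = 0.862 by Benjamini-Hochberg). Chrna10 averaged 3.27 CPM in 3 scopolamine libraries against 0 in 1 sham library of the M series and 6.29 CPM in 1 scopolamine library against 1.46 in 3 sham libraries of the N series. Limma-voom gave an unadjusted p under 0.05 for Chrna10 (Benjamini-Hochberg adjusted p = 0.616), with a log2 fold change of 4.21.

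Chrna10 overlaps Art1 on the opposite strand, with 1025 exonic bases in common, and the amplification kit does not mark strand, so reads of that stretch cannot be assigned to either gene by strand. Art1 had 43 counts in sham replicate 2, 5 in scopolamine replicate 4 and none in the other 6 libraries. Chrna10 was at 2.43 and 6.29 CPM in those 2 libraries and at 0 to 5.01 CPM in the others, and the part of Art1 reads in its counts was not tested. Chrna9, the partner of Chrna10 in hair cells (chromosome 5 from 65934921 to 65977326), had no count in any library, which allows at most 0.0729 to 0.212 CPM.

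**Figure D1:**
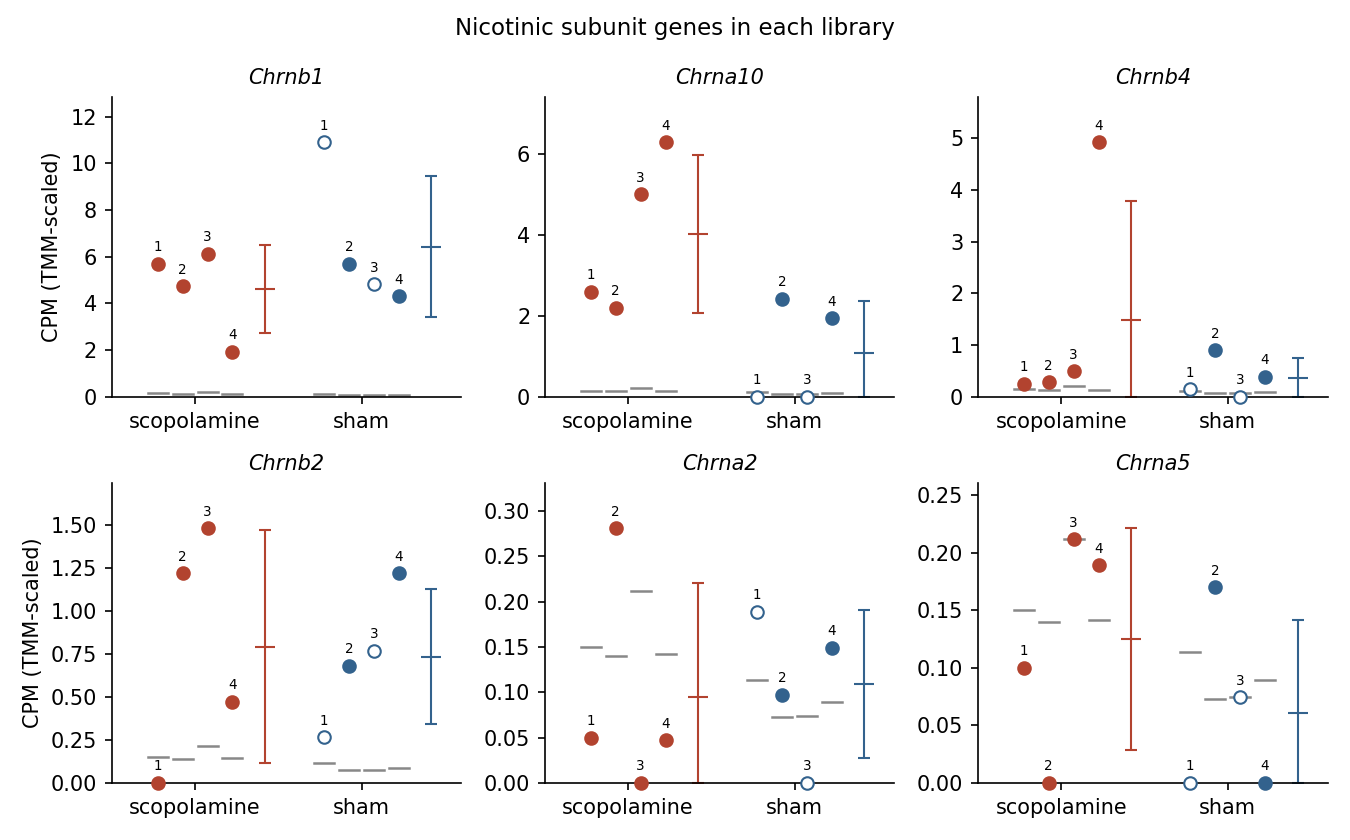
Level in CPM (linear axis, TMM-scaled, a separate axis per gene) of the 6 nicotinic subunit genes detected in at least 1 library, with 1 point per mouse numbered by replicate, scopolamine in red and sham in blue; open points are the sham libraries made from 200 pg, grey dashes mark 3 counts in that library, and the bar beside each group is the mean ± SD (n = 4), cut at 0. The groups overlap for each gene shown, Chrna10 is at 0 in both open points, and Chrnb4 reaches 4.92 CPM in scopolamine replicate 4 alone.

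Chrna5, Chrna3 and Chrnb4 lie side by side on chromosome 9, with 2331 bases between Chrna5 and Chrna3 and 1591 between Chrna3 and Chrnb4. They encode an accessory alpha subunit, the principal alpha subunit and the beta subunit of the receptor of autonomic ganglia. Chrnb4 (chromosome 9 from 55028154 to 55048779) had 0.25, 0.281, 0.494 and 4.92 CPM in scopolamine replicates 1 to 4 and 0.151, 0.9, 0 and 0.388 CPM in sham replicates 1 to 4. A single library, scopolamine replicate 4, stood far above the other 7, which overlapped across groups. The expression filter removed this gene, and in edgeR's test on all 21805 genes with a count its log2 fold change was 2.0 ± 1.52 (SE, adjusted p = 0.696 by Benjamini-Hochberg). Without scopolamine replicate 4 that value was -0.11, and the scopolamine mean fell from 1.49 ± 2.29 CPM (SD, n = 4) to 0.342 CPM (n = 3), beside a sham mean of 0.36 ± 0.394 CPM (SD, n = 4). Exact permutation over the 8 libraries (two-sided) gave p = 0.429.

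The neighbours of Chrnb4 in the cluster did not share its level in scopolamine replicate 4. Chrna5 had 2, 0, 3 and 4 counts in scopolamine replicates 1 to 4 and 0, 7, 3 and 0 counts in sham replicates 1 to 4, so that it was detected in 1 library of each group. Chrna3 had 1 count in each of scopolamine replicates 1 and 2 and none elsewhere. Both genes were too low for a comparison of the groups. A list of 5 other genes of chromosome 9 was also examined, of which Psma4, Hykk and Ireb2 lie beside the cluster. Morf4l1 and Adamts7 lie far from it, starting at 90091665 and 90163069, where Chrna5 starts at 54980880. Of the 5, 4 were detected in all 8 libraries. Their means were 143 CPM for Psma4, 141 CPM for Morf4l1, 14.6 CPM for Ireb2 and 1.94 CPM for Hykk. Adamts7 was detected in 3 libraries, with a mean of 0.561 CPM. Of the 4 genes detected throughout, Morf4l1 included, 1 was higher and 3 lower with scopolamine. Their median log2 fold change was -0.16, and none had an unadjusted p under 0.05 in edgeR. Beside the cluster, the log2 fold changes were -0.18 for Psma4, 0.63 for Hykk and -1.20 for Ireb2.

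Chrnb2, the beta subunit of the main receptor of brain (chromosome 3 from 89746195 to 89764632), had 0, 1.22, 1.48 and 0.473 CPM in scopolamine replicates 1 to 4 and 0.265, 0.681, 0.768 and 1.22 CPM in sham replicates 1 to 4. High and low libraries occurred in both groups, and the single library at 0 was scopolamine replicate 1. The log2 fold change was 0.10 ± 1.09 (SE, edgeR adjusted p = 0.996 by Benjamini-Hochberg), with a two-sided exact permutation p = 0.914. Its sign changed in 6 of 16 alternative fits, being -0.30 without the 2 libraries made from 200 pg. The level of Chrnb2 is itself uncertain, because 1365 of its exonic bases are shared with Adar on the opposite strand and Adar was at 22.1 to 60.3 CPM. The part of Adar reads in the Chrnb2 counts was not tested. In scopolamine replicate 1, Adar had 639 counts and Chrnb2 had 0. Chrna4, the alpha subunit with which Chrnb2 forms that receptor (chromosome 2 from 181018380 to 181043546), had no count in any library.

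Chrna2, an alpha subunit of neuronal receptors (chromosome 14 from 66135039 to 66152948), had 1, 6, 0 and 1 counts in scopolamine replicates 1 to 4 and 5, 4, 0 and 5 counts in sham replicates 1 to 4. It was detected in 1 scopolamine and 3 sham libraries, and no library was far above its floor. The sham libraries were deeper. Scaled to depth, the scopolamine group averaged 0.0945 ± 0.126 CPM and the sham group 0.109 ± 0.0818 CPM (SD, n = 4 each). Exact permutation (two-sided) gave p = 0.857. Chrna7, which forms channels without other subunits (chromosome 7 from 63098692 to 63212569), had no count in any library.

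Subunits known to form receptors together were also looked for in the same library. The muscle-type set was detected in sham replicate 2, as given above. Chrna9 with Chrna10, Chrna4 with Chrnb2, Chrna3 with Chrnb4, and Chrna7 alone were each detected in 0 of 8 libraries. Chrna2, which can pair with either beta subunit, was detected together with Chrnb2 and with Chrnb4 in the same 4 libraries, scopolamine replicate 2 and sham replicates 1, 2 and 4, but had at most 6 counts in them. These combinations were chosen after the values were seen, and detection in a library of 3000 or 4000 cells does not place subunits in the same cell. Of the subunit genes outside the 10, Chrnb3 ran from 0 to 0.945 CPM and Chrna6 had no count.

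Levels of different genes were compared as CPM per kb of exon, averaged over the 8 libraries. Chrnb1 was first at 2.18 ± 0.996 CPM per kb (SD, n = 8), followed by Chrna10 at 0.974 ± 0.833 and Chrnb4 at 0.248 ± 0.439 CPM per kb. Chrnb2 followed at 0.0911 ± 0.0614, Chrna5 at 0.0298 ± 0.0285, Chrna2 at 0.0269 ± 0.0261 and Chrna3 at 0.0023 ± 0.00426 CPM per kb. No pair of neighbours in this order was separated, because their ranges over the libraries overlapped in each case and no neighbour was higher in all 8 libraries. Chrna5 lay above Chrna2 in the scopolamine mean (0.0401 and 0.025 CPM per kb) but below it in the sham mean (0.0196 and 0.0288), and Chrna10 averaged 1.53 CPM per kb with scopolamine and 0.416 in sham. Chrnb1 exceeded Chrna10 per kb in 7 of 8 libraries, by 2.23-fold to 2.44-fold in 4 of them, by 1.27-fold in scopolamine replicate 3, and in the 2 low-input libraries with Chrna10 at 0. The exception was scopolamine replicate 4, in which Chrna10 was at 2.39, Chrnb4 at 1.32 and Chrnb1 at 0.766 CPM per kb. Without that library Chrnb4 came after Chrnb2. Of 21647 genes with a count and a known exon length, 63% had a lower mean per kb than Chrnb1, 53.7% than Chrna10, 40.2% than Chrnb4 and 1.99% than Chrna3. Without scopolamine replicate 4 the share below Chrnb4 was 29.6%, at a mean of 0.0945 CPM per kb.

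Among the other cholinergic genes on the same scale, Chat alone had a higher mean than Chrnb1. Chat was at 31.5 ± 9.5 CPM per kb (SD, n = 8), a mean 14.4 times that of Chrnb1, and was above Chrnb1 in 8 of 8 libraries. Slc18a3, the vesicular acetylcholine transporter, was at 1.69 ± 1.35 CPM per kb and above Chrnb1 in 3 of 8 libraries. The cholinesterase genes Ache and Bche were at 0.663 ± 0.488 and 0.622 ± 0.58 CPM per kb, above Chrnb1 in 0 and 1 of 8 libraries. The muscarinic receptor genes Chrm1 and Chrm3 were at 0.181 ± 0.33 and 0.0992 ± 0.0725 CPM per kb, below Chrnb1 in all 8 libraries, and Chrm2, Chrm4 and Chrm5 had no count. Sham replicate 3 carried much of the Chrm1 mean, with 247 counts (6.12 CPM) against at most 50 counts (2.34 CPM) in any other library. The order of Chrm1 and Chrm3 therefore rests on that library.

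**Figure D2:**
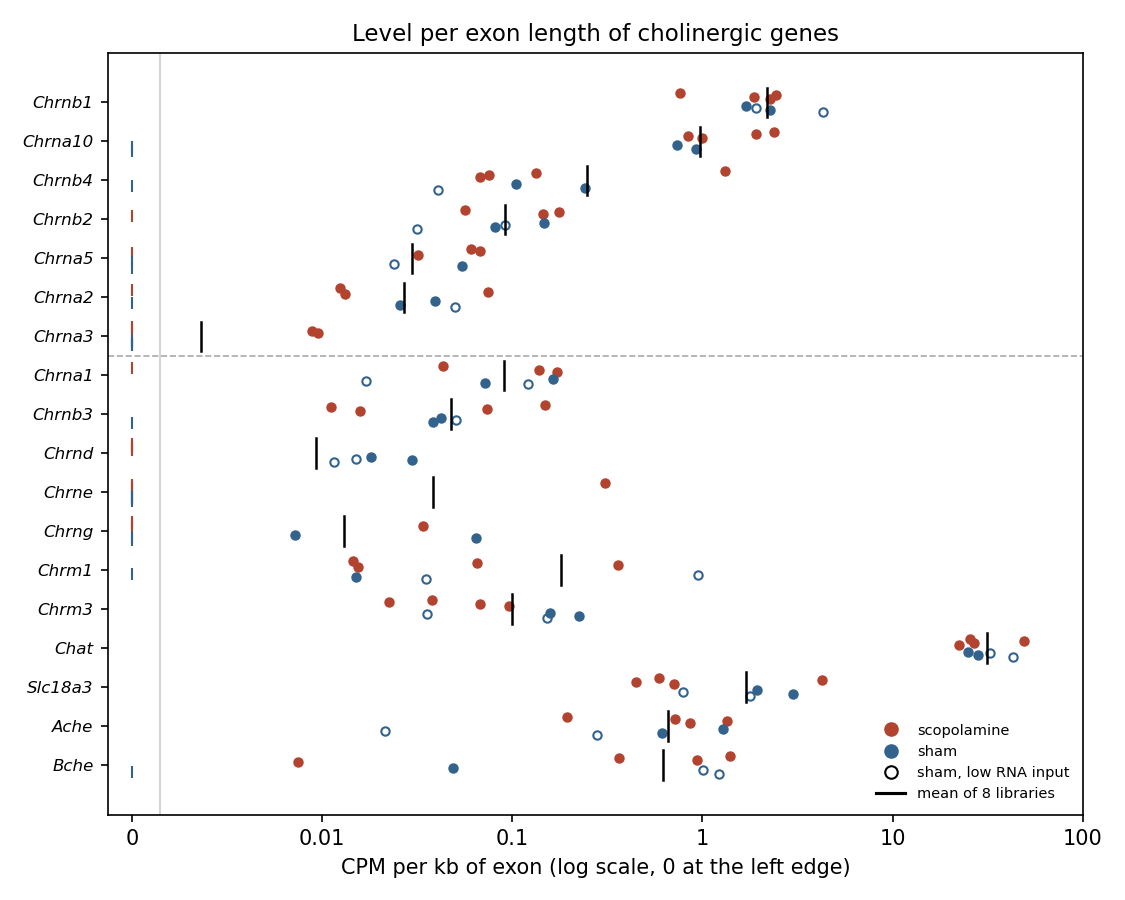
Level in CPM per kb of exon (log axis, with libraries at 0 drawn as ticks at the left edge) of the 7 nicotinic subunit genes with a count, above the dashed line in order of their mean, and of other cholinergic genes with a count below it; scopolamine libraries are red, sham libraries blue, open points are sham libraries made from 200 pg, and the black line is the mean of 8 libraries. Chrnb1 leads the subunits at 2.18 CPM per kb, while Chat lies at 31.5 CPM per kb.

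Across the subunits, no difference between scopolamine and sham passed a test. Of the 10 genes, 3 (Chrnb1, Chrna10 and Chrnb2) passed the expression filter, and 0 of these were under 0.1 in edgeR after Benjamini-Hochberg adjustment, against 0 of 12849 genes tested (0%). None of the 3 had an unadjusted p under 0.05, against 770 genes (5.99%), and 1 was lower and 2 were higher with scopolamine. With DESeq2, 0 of the 3 with an adjusted p were under 0.1, against 190 of 14462 genes (1.31%). The groups overlapped for all 3, against 499 genes (3.88%) whose groups did not. With 3 genes, such counts lie near the background and say little about the subunits as a group.

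Other genes are given by 8 lists, which hold genes of the pathway, related channels, and the genes beside the cluster with Morf4l1 and Adamts7. Of their 66 genes, 22 were past the filter, 13 higher and 9 lower with scopolamine, and 0 had an unadjusted p under 0.05 in edgeR. Over all genes tested the median log2 fold change was -0.011. Among genes for receptor assembly and transport, the 2 detected in all libraries were Rer1, at a mean of 197 CPM, and Ubxn2a, at 73.5 CPM, with a median log2 fold change of 0.11. Ric3, a chaperone of nicotinic receptors, was detected in 5 libraries, at 4.09 CPM in scopolamine replicate 3, 3.55 CPM in sham replicate 2 and at most 0.372 CPM in the other 6 libraries. In scopolamine replicate 4, the library with high Chrnb4, it was at 0.189 CPM. Of 9 Ly6 family genes, some of which modulate nicotinic receptors, Ly6e alone was detected in all libraries, from 36.5 to 268 CPM with scopolamine and from 17.5 to 187 CPM in sham, and the median over the 3 past the filter was 0.23.

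Genes of receptor clustering at the neuromuscular junction that were detected in all libraries were Agrn, at a mean of 44.4 CPM, and Lrp4, at 4.33 CPM, whose groups overlapped and whose median log2 fold change was 0.95. Dok7 of this list was not detected with scopolamine and had 0, 1.07, 9.54 and 0.955 CPM in sham replicates 1 to 4. It was below the filter, and its adjusted p (Benjamini-Hochberg) was 0.037 in DESeq2 and 0.587 in edgeR without the filter. For acetylcholine handling, Chat, Slc18a3 and Ache were detected in all libraries, the choline transporter Slc5a7 had no count, and the median over 4 genes was 0.099. Chrm3, the muscarinic gene past the filter, differed by -1.33 ± 0.81 on the log2 scale (SE, edgeR adjusted p = 0.83 by Benjamini-Hochberg).

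Related channels of the GABA, glycine and serotonin receptor families had no count for 8 of 26 genes, beside 38.1% of all genes. Gabra2, at a mean of 1.46 CPM, and Gabre, at 0.848 CPM, were among those detected in all libraries. The median log2 fold change of the 5 past the filter was 0.85, and for Gabrg3, below the filter, the adjusted p (Benjamini-Hochberg) was 0.0986 in DESeq2 and 0.587 in edgeR.

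The genes whose pattern over the 8 libraries was most like that of Chrnb1, by Pearson's r of log2 CPM, were Taf15 (r = 0.986), Unc5b (r = 0.968) and Bmi1 (r = 0.963). Like Chrnb1, these 3 genes were lowest in scopolamine replicate 4 and highest in sham replicate 1, with Bmi1 at 4.63 and 22.3 CPM in these libraries. For Chrna10 they were Oxsm (r = 0.983), Larp1 (r = 0.981) and Extl2 (r = 0.977). Each was lowest in the 2 libraries made from 200 pg, with Oxsm at 0.341 and 0.0495 CPM there. They are the highest of 12846 genes compared, which share library, depth and RNA input, and r is given as a description.

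The sort took live, EPC-high, ZSgreen-positive cells. Markers of other cells were compared with the subunits, and their part in these levels was not tested. Neuronal markers summed to 3.46, 1.92, 8.75 and 0.142 CPM in scopolamine replicates 1 to 4 and to 0.454, 4.45, 0.124 and 4 CPM in sham replicates 1 to 4, with Prph the most abundant. None of these genes passed the filter, and single genes carried the sums of some libraries, such as Ret at 7.76 CPM in scopolamine replicate 3 and Snap25 at 3.36 CPM in scopolamine replicate 1. Of 5 glial markers, Sox10, Gfap and Foxd3 were at 0, and the list summed to 2.4 to 5.15 CPM, mostly S100b.

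Scopolamine replicate 4 and sham replicate 3 had the highest sums of enteroendocrine markers, at 1093 and 1148 CPM against 178 to 827 CPM in the other 6 libraries, with Sct the most abundant, and 7 of 9 past the filter were higher with scopolamine (median log2 fold change 0.86). Scg3 of this list, below the filter, did not overlap between the groups, at 0.284 to 2.53 CPM with scopolamine and 0 to 0.0743 CPM in sham, and its adjusted p (Benjamini-Hochberg) was 0.0275 in DESeq2 and 0.587 in edgeR without the filter. Chrnb4 was at its highest in scopolamine replicate 4 and at 0 in sham replicate 3. Lymphocyte markers, led by Ptprc, summed to 48.5 to 185 CPM with scopolamine and 59.8 to 232 CPM in sham, with the lowest sum in scopolamine replicate 4 and the highest in sham replicate 1. Those are also the lowest and the highest libraries for Chrnb1. Of the 11 lymphocyte genes, 5 were likewise highest in sham replicate 1, but Ptprc was highest in scopolamine replicate 3, at 129.7 CPM, and Trac was highest in scopolamine replicate 4, at 5.06 CPM, against 0.871 CPM in sham replicate 1. Trac did not overlap between the groups, at 1.8 to 5.06 CPM with scopolamine and 0 to 1.46 CPM in sham (edgeR adjusted p = 0.812 by Benjamini-Hochberg). Myeloid markers, led by Lyz2, summed to 9.03 to 16.6 CPM with scopolamine and 5.62 to 6.86 CPM in sham. These sums did not overlap, but each of the 7 myeloid genes did. Lyz2 was at 4.12 CPM in scopolamine replicate 2 and up to 6.49 CPM in sham. Of single genes tested, 3.88% did not overlap, and no such share was computed for sums. Csf1r and Cx3cr1 had at most 7 counts in any library, Adgre1 at most 4 and Itgax at most 3. Single genes carried part of some sums, with Fcer1g at 4.45 CPM in scopolamine replicate 2 and Cd68 at 3.07 CPM in scopolamine replicate 4. The highest sums, in scopolamine replicates 3 and 4, fell in the libraries with the most Chrna10.

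Enterocyte markers, led by Fabp1, summed to 2991 to 6229 CPM with scopolamine and 2469 to 6161 CPM in sham. Fabp1 itself had a log2 fold change of 0.15, but 7 of 7 enterocyte markers were higher with scopolamine (median 1.62, against -0.011 over all genes tested), with Apoa4 among those with an unadjusted p under 0.05 in edgeR. Goblet and Paneth markers, led by Tff3, summed to 605 to 3460 CPM and 274 to 1126 CPM, and 8 of 8 were higher with scopolamine (median 1.63), 1 of them (Zg16) with an unadjusted p under 0.05. The groups overlapped for each gene of both lists, and none had an adjusted p under 0.1 in edgeR, or in DESeq2 where it gave one. The Paneth cell genes Lyz1 and Mmp7 were highest in scopolamine replicate 4, the library with the most Chrna10 and Chrnb4, at 487 and 58.4 CPM against at most 49 and 15.7 CPM in the other 7 libraries, whereas Ang4 was highest in scopolamine replicate 2, at 23.6 CPM against 7.8 CPM in replicate 4. Stem cell markers, led by Ascl2, summed to 99 to 218 CPM and 158 to 217 CPM, and 4 of 4 were lower with scopolamine (median -0.26).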

How the data were processed

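The authors trimmed reads, assigned them to GRCm38 transcripts with kallisto and deposited the estimated counts as gene sums that were not normalized. The submitters' processing notes name bcl2fastq 2.20 and kallisto 0.44.0. All counts were whole numbers (rounding changed 0 values). Groups came from the sample labels, and RNA input and cycles from the study's source data.

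Genes were tested in R 4.3.3 with edgeR 4.0.16, using TMM factors, filterByExpr and the quasi-likelihood test, at an adjusted p under 0.1 (Benjamini-Hochberg, all genes tested), after a test on simulated data. Subunits removed by the filter were read from the fit without it. Single genes with more than 3 counts in at least 4 libraries were compared by exact permutation of log2(CPM + 0.5) over 70 assignments. Exon lengths and coordinates are from GENCODE release M21 of GRCm38. Replicates differed by more than sampling noise (chi-square per degree of freedom 52.7 or more).

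The alternatives used DESeq2 1.42.0 or limma-voom (limma 3.58.1), other scaling (the size factors of DESeq2, or library size), another filter (none, or at least 10 counts per library), fewer libraries (without those of low input, or each replicate in turn) or a covariate (cycles, mouse ID series). Named genes are all 10 subunits, the 3 genes most like each of the 2 most abundant subunits, and genes of the lists detected in all 8 libraries (up to 5) or past the threshold. Genes named beyond these, such as Ric3, Trac, Ret, Snap25 and Slc29a2, were chosen after their values were seen. The subunits and lists were chosen with earlier results of these data known. Some genes of the lists are not reported here.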

Additional observations from a re-analysis of the deposited data

Results flagged for a closer look

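Of 10 groups of 4 libraries examined (5 subunit genes in 2 groups), 1 held a library far from the others. Chrnb4 was at 4.92 CPM in scopolamine replicate 4 and at 0.25 to 0.494 CPM in the other 3 scopolamine libraries, so that the gap to the nearest library took 0.948 of the group's range, above the 95% limit of Dixon's ratio for 4 samples. For normally distributed values, chance gives such a library in about 1 in 20 groups. The rate for low counts of amplified cDNA was not tested. The value rests on 104 counts, DESeq2 gave no p for this gene, and Chrna10 was also highest in that library, at 6.29 CPM.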

How the results depend on the processing

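Under 17 alternative fits, 0 subunits had an adjusted p under 0.1 in each, and the number with an unadjusted p under 0.05 was 0 in all but limma-voom, where it was 1 (Chrna10). Of 79 log2 fold changes of the 5 compared subunits under these fits, 67 kept their direction and 12 did not. Chrnb1 stayed lower and Chrna10 higher with scopolamine throughout, from -1.16 to -0.10 and from 0.86 to 4.43. Chrnb2 turned to -0.87 with limma-voom, -0.30 without the low-input libraries and -0.27 with cycles as a covariate. With each replicate left out, Chrnb2 ran from -0.38 to 0.51, Chrna2 from -1.57 to 0.22 and Chrnb4 from -0.11 (without scopolamine replicate 4) to 2.97. The cause was not tested. Then 1 to 2 subunits were detected in all libraries, the second being Chrnb2 without scopolamine replicate 1 and Chrnb4 without sham replicate 3, and 3 to 7 of the 7 subunits with a count kept their place in the order per length, the lowest without scopolamine replicate 4. Under the filter of at least 10 counts in every library Chrnb1 alone was left. For the genes at 0, 3 counts would be 0.0729 to 0.212 CPM per library, a floor that takes in counting error alone. The part of RNA input and amplification in these zeros was not tested.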
